A study of Saccharomyces cerevisiae with 36 samples.

Results

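Ethanol limitation was set against glucose limitation in 1 L chemostats of the budding yeast Saccharomyces cerevisiae, with RNA sequenced from 3 cultures of each. In a chemostat, fresh medium flows in and culture flows out at one rate, and growth is held back by whichever nutrient runs short. All 6 cultures were grown in a vessel labelled DASGIP and carried the same strain, HAP1-TAP, which was built from CEN.PK 113-5D. In it the regulator Hap1p ends in a CBP-ProtA purification tag, so tag and vessel are common to both groups and neither enters the comparison. The ethanol-limited group (Et-lim) was fed 0.5% ethanol and the glucose-limited group (Glu-lim) 0.75% glucose, both by weight per volume, and samples were drawn after 48 to 60 h of constant readings. The members are the raw counts of these 6 libraries, 6 of the 36 in the series, for all genes: of 7122 gene lines, 6612 passed the filter on low counts. The other 30 libraries hold nitrogen and oxygen with glucose limitation in the same vessel, and the 4 limitations in vessels labelled MC with the tagged strain and with untagged CEN.PK 113-5D.

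A yeast cell that lives on ethanol oxidises it to acetate and activates the acetate to acetyl-CoA. The glyoxylate cycle turns acetyl-CoA into malate and oxaloacetate, and gluconeogenesis turns these into the sugars that a glucose-fed cell gets from its medium. The enzymes of both routes are repressed when glucose is plentiful, and their genes are switched on through the kinase Snf1 and the activators Adr1, Cat8 and Sip4. Cat8 and Sip4 bind a promoter motif called the carbon source response element. Genes of trehalose, glycogen and stress protection are often controlled through the shorter stress response element, which Msn2 and Msn4 bind.

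CEN.PK 113-5D is a haploid MATa strain, and the mating genes gave a check of it. The 7 genes specific to MATa cells summed to 396 to 645 CPM (counts scaled to a common library size with TMM factors) over the 6 libraries. The 5 MATalpha-specific genes summed to 50.2 to 60.2 CPM. HAP1, the tagged gene, was read in all 6 libraries, at 268, 216 and 272 CPM under Et-lim and 390, 325 and 325 CPM under Glu-lim, a fall of 0.46 on the log2 scale (SE 0.11, adjusted p = 0.00189). A count over the gene cannot show the tag itself.

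Libraries held 14.9 to 20.3 M (mega) counted reads, and 6738 to 6812 gene lines had counts. Et-lim replicate 1 stood apart from replicates 2 and 3. Its correlation with them across genes was 0.984 and 0.986, against 0.992 between replicates 2 and 3 and 0.990 to 0.993 among the Glu-lim libraries. The spread of its log2 CPM about the other Et-lim libraries was 0.368, the 4th highest of the 36 libraries, against 0.291 and 0.268 for replicates 2 and 3. In limma's voom, which weights a library by how well it fits its group, replicate 1 received a weight of 0.203, the 2nd lowest of 36, where replicates 2 and 3 received 0.908 and 1.98 and the Glu-lim libraries 0.715 to 2.08. It was at least 2-fold above the mean of the other Et-lim libraries in 75 of the 6612 genes tested (1.13%) and at least 2-fold below it in 51 (0.771%). The same counts were 31 (0.469%) and 43 (0.650%) for replicate 2 and 25 (0.378%) and 35 (0.529%) for replicate 3. At any distance, replicate 1 lay above both other Et-lim libraries in 2868 of the 6612 genes and below both in 2496. Its depth (19.0 M) and its share of small RNA (11.7%) lay between those of replicates 2 and 3 (20.3 and 15.2 M, 11.3% and 12.1%), and what set it apart was not tested. Its mitochondrially encoded share was lower than theirs (31.5% against 37.6% and 34.5%), and its share of nuclear reading frames (56.7% against 51.1% and 53.4%) and its TMM factor (0.907 against 0.817 and 0.845) were higher. Results are therefore given with and without it.

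Ethanol limitation changed 2137 of the 6612 genes (32.3%) by edgeR's quasi-likelihood F test at an adjusted p under 0.05, in a model of all 36 libraries. Of these, 1119 were higher (16.9%) and 1018 lower (15.4%) under Et-lim. At least 2-fold changes were fewer, with 119 genes higher (1.80%) and 220 lower (3.33%). Without Et-lim replicate 1 the counts were 1067 higher (16.1%) and 1002 lower (15.1%), and 1724 genes were called in both fits, all with the same sign. The other 413 were called only with replicate 1 in the fit and 345 only without it. Of the 339 genes that were called and at least 2-fold changed, 324 were also called without it. In the counts alone, all 3 Et-lim libraries lay above all 3 Glu-lim libraries in 1474 genes (22.3%) and below them in 1351 (20.4%).

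The weight of replicate 1 showed most clearly when the 6 libraries were fitted alone. With it, 752 genes were higher (11.6%) and 781 lower (12.1%); with replicates 2 and 3 only, 1195 were higher and 1115 lower, although a library fewer was fitted. Leaving out replicate 2 or 3 in the same fit gave 512 and 451 genes higher and 499 and 513 lower. Replicate 1 was also set against genes called without it, as a description only, since the Glu-lim libraries are the same in the call and in the count. Of the 1067 genes called higher without it, it lay above all 3 Glu-lim libraries in 899 (84.3%), and of the 1002 called lower it lay below them in 768 (76.6%). For replicate 2 the same shares were 93.7% and 94.0%, and for replicate 3 they were 95.2% and 94.1%. Its median distance from the Glu-lim mean was 0.35 in the genes called higher, where the fit without it gave a median of 0.46. In the genes called lower its median distance was -0.36 against -0.58.

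Promoter stretches are shown first for the genes whose rise opens the results, because 10 of the 14 largest rises held the carbon source response element. The element was searched as the letters CCNNT and CCG with 3 free bases between them (N is any base), on both strands of the 600 bases before each start codon, in RefSeq's R64 sequence, the build of the files. It was found in 511 of 5825 promoters (8.77%), in 71.4% of the 14 largest rises and in 2 of the 14 largest falls (14.3%). In the gluconeogenesis and glyoxylate cycle list it was in 6 of 13 promoters (46.2%), and in the glycolysis list in 1 of 23 (4.35%). Other lists with more rises than falls held it in 33.3% (ethanol and acetate), 31.2% (organic acid and carnitine transport) and 9.52% (citric acid cycle). Other lists with more falls held it in 15.8% (trehalose and glycogen), 14.3% (desiccation), 13% (cytosolic ribosomal proteins), 8.7% (chaperones) and 0% (ribosome biogenesis). FBP1 and CIT2, which rose as far as their neighbours, held no match in this window. A match is a run of letters and says nothing by itself of binding. Capitals mark the matches, and each stretch runs 5′ to 3′ on the gene's own strand.
ICL1, chrV:287262-287352, minus strand: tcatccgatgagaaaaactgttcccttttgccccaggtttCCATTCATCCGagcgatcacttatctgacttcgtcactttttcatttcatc
PCK1, chrXI:630552-630721, plus strand: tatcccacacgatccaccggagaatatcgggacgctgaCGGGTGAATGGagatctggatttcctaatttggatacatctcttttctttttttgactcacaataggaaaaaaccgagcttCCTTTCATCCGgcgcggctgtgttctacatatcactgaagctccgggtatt
PCK1, chrXI:630750-630840, plus strand: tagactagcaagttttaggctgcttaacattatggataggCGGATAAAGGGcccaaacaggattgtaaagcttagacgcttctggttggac
MLS1, chrXIV:405787-405950, plus strand: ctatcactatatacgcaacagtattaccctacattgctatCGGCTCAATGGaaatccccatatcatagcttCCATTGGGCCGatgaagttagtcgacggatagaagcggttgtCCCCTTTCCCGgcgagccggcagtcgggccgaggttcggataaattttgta
MDH2, chrXV:83247-83393, minus strand: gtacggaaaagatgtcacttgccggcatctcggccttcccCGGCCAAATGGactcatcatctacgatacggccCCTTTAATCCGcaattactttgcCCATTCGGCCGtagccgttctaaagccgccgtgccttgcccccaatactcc
CDA2, chrXII:747460-747699, plus strand: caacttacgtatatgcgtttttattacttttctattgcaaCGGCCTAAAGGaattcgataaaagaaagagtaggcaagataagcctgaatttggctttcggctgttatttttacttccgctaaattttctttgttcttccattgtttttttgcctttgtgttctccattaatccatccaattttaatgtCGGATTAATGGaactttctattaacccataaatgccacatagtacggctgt
The CDA2 stretch was chosen after its values were seen, since it lies between 2 of the largest rises. CDA2 (plus strand, chromosome XII, 747937 to 748875) and DPA10 (minus strand, 746848 to 747111) are read away from each other, so the same letters count as a match for both.

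Genes that make sugar from acetyl-CoA rose furthest. Of the 13 genes of the gluconeogenesis and glyoxylate cycle list, 10 rose and 3 did not pass the test, with a median log2 change of 1.58 where the median of all genes was -0.00. PCK1 (YKR097W, chromosome XI, 631152 to 632801), the phosphoenolpyruvate carboxykinase that commits oxaloacetate to sugar, measured 2127, 2709 and 2256 CPM under Et-lim and 32.4, 29.9 and 40.8 CPM under Glu-lim. The groups lay far apart, with a log2 change of 6.10 (SE 0.29, adjusted p = 4.09e-14). ICL1 (YER065C, chromosome V, 285241 to 286914), the isocitrate lyase that opens the glyoxylate cycle, measured 6244, 6892 and 6508 CPM against 236, 188 and 220 CPM. All 3 Et-lim libraries lay far above the highest Glu-lim library, and the log2 change was 4.93 (SE 0.14, adjusted p = 1.23e-19). MLS1, the malate synthase that follows it, stood at 3118, 3444 and 3262 CPM against 143, 128 and 129 CPM, a log2 change of 4.61 (SE 0.14). FBP1, the fructose-1,6-bisphosphatase of the last steps, stood at 849, 758 and 723 CPM against 49.9, 39.1 and 56.0 CPM, a change of 4.01 (SE 0.19). No library of either group crossed to the other side in these genes, a property used to choose them.

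CIT2, the peroxisomal citrate synthase, rose by 3.73 (SE 0.16), and its replicate 1 was the lowest of the Et-lim libraries at 1801 CPM beside 2530 and 2407 CPM. MDH2, the cytosolic malate dehydrogenase, rose by 3.63 (SE 0.17), and there replicate 1 was the highest at 2725 CPM beside 2183 and 2109 CPM. Smaller rises were IDP2 (1.58), AGX1 (1.33), ICL2 (1.30) and PYC1 (1.08), the cytosolic pyruvate carboxylase, whose paralog PYC2 measured 0.03 and did not pass. Without replicate 1 the same 10 genes were called and the median was 1.61, so this group hardly moved. Its 13 genes held replicate 1 between 0.54 below and 0.35 above the mean of the other Et-lim libraries on the log2 scale.

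**Figure D1:**
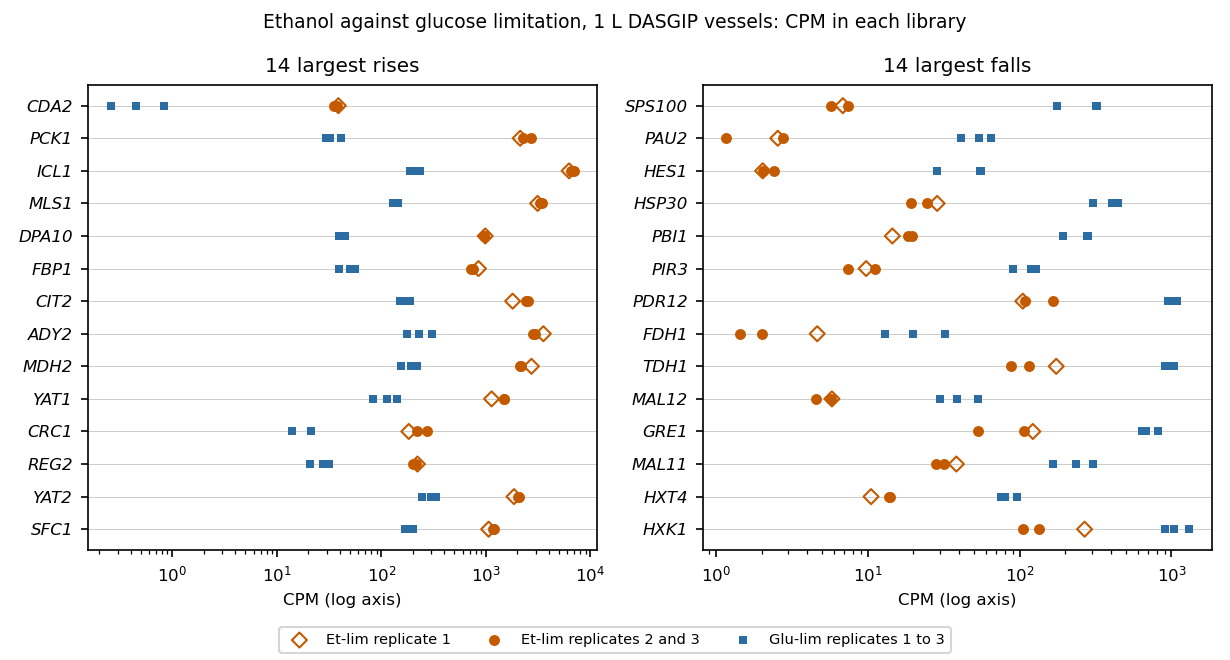
CPM on a log axis of the 14 largest rises and the 14 largest falls, with 1 symbol for each library (open diamonds, Et-lim replicate 1; filled circles, Et-lim replicates 2 and 3; squares, Glu-lim). The Et-lim and Glu-lim libraries do not overlap in any of the 28 genes, a property used to choose them, and PCK1 spans 29.9 to 2709 CPM.

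The route from ethanol to acetyl-CoA rose at some steps and fell at others. ACH1, which moves CoA between acetate and succinate, rose by 2.25 (SE 0.16). ACS1, the acetyl-CoA synthetase used on non-fermentable carbon, measured 8348, 6026 and 6403 CPM against 1723, 1238 and 2253 CPM, a log2 change of 1.99 (SE 0.20). ADH2, the alcohol dehydrogenase that oxidises ethanol, measured 7041, 4543 and 5222 CPM against 1799, 1329 and 2293 CPM, a change of 1.63 (SE 0.17). Replicate 1 was the highest Et-lim library in both genes, and both rises remained called without it, at 1.84 and 1.43. The other acetyl-CoA synthetase, ACS2, rose by 1.38 and the cytosolic aldehyde dehydrogenase ALD6 by 1.02. ALD3, ALD2 and ALD5 fell by 2.27, 0.74 and 0.68, and the mitochondrial ALD4 measured 0.16 and did not pass. In all, 5 of the 9 genes rose and 3 fell.

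Acetyl units can cross into mitochondria as acetyl-carnitine, and the genes of that shuttle rose together. Use of the shuttle was not measured. The list of organic acid and carnitine transport held 16 genes, of which 11 rose and 1 fell, with a median of 1.09. ADY2, an acetate transporter of the plasma membrane, measured 3542, 2813 and 2946 CPM against 230, 176 and 306 CPM and rose by 3.71 (SE 0.27). YAT1, YAT2 and CAT2, the 3 carnitine acetyltransferases, rose by 3.61, 2.76 and 2.33. CRC1, the carnitine carrier of the inner mitochondrial membrane, rose by 3.58 (SE 0.20), from 21, 14.1 and 21 CPM to 183, 270 and 217 CPM. SFC1, which exchanges succinate for fumarate, rose by 2.61, and the oxodicarboxylate carrier ODC1 by 1.5. JEN1, the lactate and pyruvate permease, measured -0.25 and did not pass. The fall was that of the citrate carrier CTP1 (-0.47), and its call ended without replicate 1, as did the rise of the pyruvate carrier MPC3 (0.89).

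Regulators of carbon source moved less than the enzymes. Of 32 such genes, 6 rose, near the 16.9% of all genes tested, and 10 fell, where 15.4% of all genes did. SIP4, an activator that binds the response element, stood at 576, 498 and 576 CPM against 145, 120 and 142 CPM and rose by 2.02 (SE 0.11). SIP2, a beta subunit of the Snf1 kinase, rose by 1.27, ADR1 by 0.99, CAT8 by 0.58 and HAP4, the activating subunit for respiratory genes, by 0.35. SNF1 itself measured 0.08 and did not pass. VID24, which marks gluconeogenic enzymes for breakdown, fell by 2.22 (SE 0.19), the glucose repressor MIG1 by 1.19 and MTH1, a regulator of hexose transporters, by 1.15. REG2, a subunit that directs the phosphatase Glc7, was one of the 14 rises named for their size, at 3.0 (SE 0.46).

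CDA2 (YLR308W), a chitin deacetylase of the spore wall, had the largest rise of the genes called. It measured 38.8, 37.9 and 35.6 CPM under Et-lim and 0.841, 0.452 and 0.258 CPM under Glu-lim, a log2 change of 6.15 (SE 0.48, adjusted p = 2.3e-14). Its neighbour DPA10 (YLR307C-A) measured 985, 958 and 963 CPM against 40.2, 39.7 and 45 CPM, a change of 4.54 (SE 0.18). Other genes of the spore wall and meiosis list moved less or fell: 7 of 21 rose and 3 fell, and 4 rose without Glu-lim replicate 2. The meiotic starters IME1 and IME2 rose by 0.61 and 1.11. SPS100 (YHR139C, chromosome VIII, 378219 to 379199), which protects the maturing spore wall, had the largest fall of all named genes, from 320, 322 and 176 CPM to 6.86, 5.74 and 7.37 CPM, or -5.36 (SE 0.19). It overlaps the non-coding gene YNCH0011W in RefSeq, and reads of the overlap cannot be assigned.

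Respiratory genes rose by less, but in nearly every member. In the citric acid cycle 18 of 21 genes rose, with a median of 1.00, led by CIT3 (2.02), fumarase FUM1 (1.67), the succinate dehydrogenase subunit SDH1 (1.55) and the isocitrate dehydrogenase subunit IDH1 (1.53). The genes that did not pass included PDB1 (0.20) and LAT1 (0.15), subunits of pyruvate dehydrogenase, which feeds the cycle from pyruvate. Of 26 nuclear genes of the respiratory chain 22 rose, with a median of 0.65. NDE2, an NADH dehydrogenase that faces the cytosol, rose by 1.42 and cytochrome c, CYC1, by 1.00. CYC1 measured 211, 391 and 330 CPM against 159, 154 and 153 CPM, with replicate 1 the lowest of the 3. The 2 that fell were CYC7 (-2.60) and COX5B (-1.37), the low-oxygen forms of CYC1 and COX5A, and COX5A rose by 0.69. Of 17 genes of the ATP synthase 15 rose, with a median of 0.52.

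Mitochondrially encoded RNA, rRNA and tRNA lines included, took 31.5%, 37.6% and 34.5% of the counts under Et-lim and 25.2%, 29.9% and 25.9% under Glu-lim, with no overlap. The 8 protein-coding genes summed to 89435, 120141 and 106444 CPM under Et-lim and 62722, 77903 and 64138 CPM under Glu-lim. Most of the mitochondrial share thus lay in other lines. Of the 8 genes 6 rose, with a median of 0.62, and VAR1 (0.37) and ATP8 (0.55) did not pass. OLI1, a subunit of the ATP synthase, rose by 0.72 and COX2, a subunit of cytochrome oxidase, by 0.66. Replicate 1 lay below both other Et-lim libraries in all 8 genes, and the median was 0.75 without it. In a fit of the 6 libraries alone 4 of the 8 were called, and in the full model 2 without Et-lim replicate 2 or Glu-lim replicate 3 and 3 without Glu-lim replicate 1. COB and COX2 overlap other RefSeq genes. The nuclear genes of the mitochondrial ribosome shifted slightly: 24 of 74 rose, with a median of 0.22, and 34 rose and MRP8 fell without replicate 1. The rises numbered 4 without Et-lim replicate 2, 14 without Glu-lim replicate 2 and 8 in the 6 libraries alone. Over all genes tested, these fits called 937 of 6626, 857 of 6625 and 752 of 6480 higher. The count in the 6 libraries alone was thus near the share of all genes (11.6%). In bulk RNA, more RNA per cell and a larger share of cells with that RNA cannot be told apart, here and in the other groups.

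Sugar uptake and glycolysis fell. Of 17 hexose transporters and sensors tested 7 fell, with log2 changes of -2.71 for HXT4, -2.18 for HXT7, -1.96 for HXT10, -1.93 for HXT3, -1.75 for HXT2, -1.70 for HXT6 and -0.38 for the sensor RGT2. HXT6 and HXT7 are near-identical, so their counts are uncertain one by one. HXT5, the transporter of slow-growing cells, measured 0.57 and did not pass. Of 23 genes of glycolysis and fermentation 18 fell, with a median of -1.08, and PDC5, a pyruvate decarboxylase, rose by 0.66. TDH1, a glyceraldehyde-3-phosphate dehydrogenase, measured 174, 87.6 and 116 CPM against 1043, 903 and 1004 CPM, a log2 change of -2.97 (SE 0.26). HXK1, the hexokinase induced by low glucose, measured 268, 105 and 133 CPM against 1047, 912 and 1302 CPM, a change of -2.69 (SE 0.37). Replicate 1 was the Et-lim library nearest to Glu-lim in both, and without it their changes were -3.28 and -3.19. HXK2, the hexokinase of high glucose, measured -0.29 and did not pass. TDH2 (-1.94), TDH3 (-1.11), ENO1 (-1.78), ENO2 (-1.31) and the pyruvate kinase CDC19 (-1.23) also fell, and paralogs as alike as the TDH or ENO genes may share reads. The phosphofructokinase subunits showed little, at -0.29 for PFK2, which was called, and -0.10 for PFK1, which was not. MAL11 and MAL12, the maltose permease and maltase, fell by 2.85 and 2.92.

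Most of the genes of ergosterol synthesis fell. Of 26 ergosterol genes 16 fell and 1 rose, with a median of -0.33. ERG11, the lanosterol demethylase, measured 911, 853 and 900 CPM against 2577, 2475 and 2038 CPM, and fell by 1.41 (SE 0.12). ERG3 (-1.33), ERG25 (-1.31) and the sterol regulator UPC2 (-1.56) fell with it. The early mevalonate genes HMG1 (-0.13), ERG10 (-0.09) and ERG13 (0.19) did not pass, and MVD1 rose by 0.27. HES1, an oxysterol-binding protein, fell by 4.44 (SE 0.39), from 56.0, 55.1 and 28.6 CPM to 2.03, 2.05 and 2.41 CPM. Of 17 low oxygen genes, HES1 included, 7 fell and 1 rose, with a median of -0.33, and 7 fell without Et-lim replicate 1, with a median of -0.12. The wall mannoproteins TIR3 (-1.81), TIR4 (-1.62), TIR1 (-1.55) and DAN1 (-1.47) were among the falls. Of 24 seripauperin (PAU) genes 13 passed the filter on low counts and 6 fell, PAU2 by 4.58. These genes are near-identical and low, so single values are uncertain. PIR3, a wall glycoprotein, fell by 3.59 and PDR12, an exporter of weak acids, by 3.03.

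Genes of heat and desiccation fell, and here replicate 1 mattered. Of 23 chaperone genes 16 fell, with a median of -0.40, among them SSA3 (-2.23), HSP26 (-2.13), BTN2 (-1.37) and SSA4 (-1.37). Without replicate 1 the count was 15 and the median -0.56, and 14 genes fell in both fits. The count was 9 without Et-lim replicate 2 or Glu-lim replicate 1 and 10 without Et-lim replicate 3. Of 21 desiccation and stationary phase genes 12 fell and 2 rose, with a median of -1.09, and without replicate 1 13 fell and 1 rose, with a median of -1.56. HSP30, a regulator of the plasma membrane proton pump, fell by 3.99, the hydrophilins GRE1 and SIP18 by 2.91 and 2.56. Replicate 1 lay above both other Et-lim libraries in 18 of these 21 genes, with a median distance of 0.69 from their mean. Over all genes tested it lay above both in 2868 of 6612. In the antioxidant list 11 of 27 fell and 2 rose with replicate 1, and 15 fell and 2 rose without it. OYE3 (-2.66), TSA2 (-2.46), AHP1 (-2.14) and the cytosolic catalase CTT1 (-1.98) led the falls, while CTA1, the peroxisomal catalase, rose by 1.10. In a fit of the 6 libraries alone 12 chaperone genes, 8 desiccation genes and 7 antioxidant genes fell.

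The genes in which replicate 1 stood highest above replicates 2 and 3 were HSP12, GPH1, SOL4, MSC1, YGP1, TKL2, FMP16 and EGO4, by 1.43 to 1.92 on the log2 scale. This is a description, since the distance chose them. HSP12 (YFL014W), a membrane-protecting hydrophilin, measured 1321, 275 and 441 CPM under Et-lim and 1837, 1437 and 1616 CPM under Glu-lim. Replicate 1 was thus close to the Glu-lim libraries, and the log2 change was -1.26 with it (SE 0.36, adjusted p = 0.00801) and -2.19 without it (adjusted p = 5.23e-06). In the 6 libraries alone the adjusted p was 0.0828 with replicate 1. GPH1, the glycogen phosphorylase, measured 458, 113 and 136 CPM against 335, 279 and 384 CPM. Replicate 1 lay above every Glu-lim library, while replicates 2 and 3 lay below them. Its log2 change was -0.50 with replicate 1 (adjusted p = 0.2) and -1.42 without it (adjusted p = 3.12e-06). All 8 promoters held the stress response element, AGGGG on either strand, which was found in 2323 of 5825 promoters (39.9%). In the 8 genes where replicate 1 stood lowest, 2 promoters held it (25%). The element was also in 57.1% of the 14 largest rises, 53.8% of the gluconeogenesis list, 71.4% of the citric acid cycle list and 77.8% of the ethanol and acetate list. In the last of these replicate 1 was above the other Et-lim libraries by a median of 0.43. Where replicate 1 was mostly above them, shares were 78.9% (trehalose and glycogen), 61.9% (desiccation) and 47.8% (chaperones). Where it was mostly below them, shares were 37% (cytosolic ribosomal proteins) and 27.8% (ribosome biogenesis). Whether the element bears on replicate 1 was not tested. A stretch of the HSP12 promoter, chosen after its values were seen, shows 3 of these matches in capitals.
HSP12, chrVI:106781-106923, plus strand: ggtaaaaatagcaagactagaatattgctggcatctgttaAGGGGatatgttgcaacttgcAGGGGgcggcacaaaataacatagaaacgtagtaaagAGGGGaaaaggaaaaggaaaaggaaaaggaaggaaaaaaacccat

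**Figure D2:**
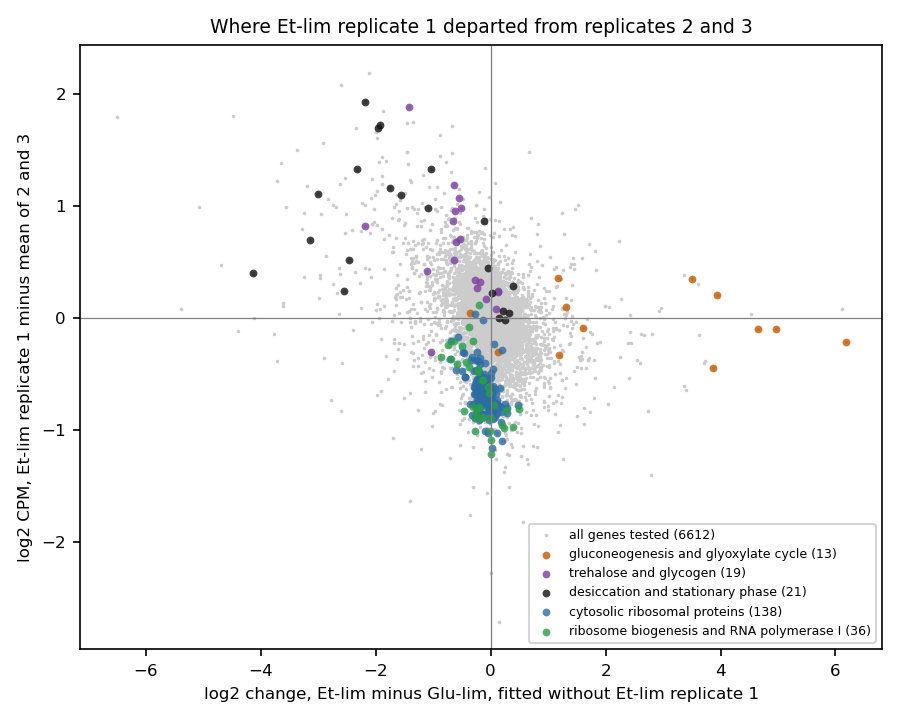
For each gene tested, the log2 change fitted without Et-lim replicate 1 (x) against the log2 CPM of replicate 1 minus the mean of Et-lim replicates 2 and 3 (y). Both axes use replicates 2 and 3, so no relation between them is read. Ribosomal protein genes lie near 0 on x and below 0 on y (137 of 138 below both other libraries), desiccation genes above 0 (18 of 21 above both), and gluconeogenesis genes near 0 on y.

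Genes of trehalose and glycogen, the storage carbohydrates, divided the Et-lim libraries. With replicate 1, 4 of its 19 genes fell, where 15.4% of all genes tested did, and the median was -0.15. The 4 were GIP2 (by 1.86), GAC1 (by 1.13), PIG2 (by 0.95) and NTH1 (by 0.45). Without replicate 1, 8 fell and the median was -0.55. Those added were GPH1, the trehalose synthase TPS1 (-0.24 with replicate 1, -0.63 without it), the debranching enzyme GDB1 (-0.12 and -0.64) and the glycogen synthase GSY2 (-0.09 and -0.55). Replicate 1 lay above both other Et-lim libraries in 18 of the 19 genes. Averaged over the list, log2 CPM came to 7.28, 6.62 and 6.74 in the Et-lim libraries and 7.30, 7.07 and 7.37 under Glu-lim, so replicate 1 sat within the Glu-lim range and replicates 2 and 3 below it. The proteasome and autophagy list also divided the Et-lim libraries. Its mean log2 CPM was 7.68, 7.30 and 7.36 under Et-lim and 7.60, 7.49 and 7.50 under Glu-lim. Here replicate 1 sat above the Glu-lim libraries. Replicate 1 was above both other Et-lim libraries in 32 of 32 genes, and 1 gene rose with it and 0 without it. The genes that fell numbered 3 with replicate 1 and 13 without it, with medians of -0.06 and -0.19. They numbered 1 without Et-lim replicate 2 or 3.

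Peroxisome and fatty acid oxidation genes went the other way. With replicate 1, 10 of 26 rose, with a median of 0.30. Without it 5 rose, with a median of 0.11, and in the 6 libraries alone 3 rose. Both counts were near the shares of all genes tested that rose in those fits, 16.1% and 11.6%. Leaving out Glu-lim replicate 1 or 2 gave 6 and 4. FAA2, a fatty acyl-CoA synthetase, measured 699, 402 and 437 CPM against 312, 271 and 391 CPM, and ECI1, an enoyl-CoA isomerase, 106, 50.6 and 52.9 CPM against 41.0, 40.7 and 57.7 CPM. Replicate 1 was the highest library in both, and neither rise remained called without it, at 0.37 (adjusted p = 0.161) and 0.16 (adjusted p = 0.533). CTA1 and PEX21, a peroxisomal import factor (0.71), were called in both fits.

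Replicate 1 was low where the cell makes ribosomes. The 138 cytosolic ribosomal protein genes had a mean log2 CPM of 6.88 in replicate 1, 7.56 and 7.52 in replicates 2 and 3, and 7.60, 7.77 and 7.59 under Glu-lim. Replicates 2 and 3 were thus just under the Glu-lim libraries, and replicate 1 was well under all of them. It lay below both other Et-lim libraries in 137 of 138 genes, where it did so in 2496 of all 6612 genes tested. With replicate 1, 52 of 138 genes fell and the median was -0.29. Without it 8 fell and 2 rose, with a median of -0.11. In the 6 libraries alone 12 fell, and without Glu-lim replicate 2 in the full model also 12, so the count of cytosolic ribosomal proteins rested on single libraries. The 8 that fell in both fits were RPS28B, RPL36A, RPS27A, RPL35B, RPS0B, RPL14B, RPS23A and RPS22B, by 0.46 to 0.82 with replicate 1. RPP0 (0.04 with replicate 1, 0.28 without it) and RPL4A (0.25 and 0.47) were the 2 that rose. Many of these genes are paralog pairs that can share reads.

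Ribosome biogenesis genes showed the same. Of 36, 9 fell with replicate 1, with a median of -0.38, and 3 fell and 2 rose without it, with a median of -0.21. The falls numbered 17 without Et-lim replicate 3 and 4 without Glu-lim replicate 2. DBP2 (-0.97), UTP9 (-0.82) and NOP15 (-0.59) fell in both fits. NOP56, a core protein of the snoRNPs that guide methylation of rRNA, measured 98.8, 232 and 227 CPM against 202, 249 and 239 CPM. Replicates 2 and 3 lay among the Glu-lim libraries and replicate 1 far below, with a log2 change of -0.31 with it (adjusted p = 0.267) and 0.00 without it.

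**Figure D3:**
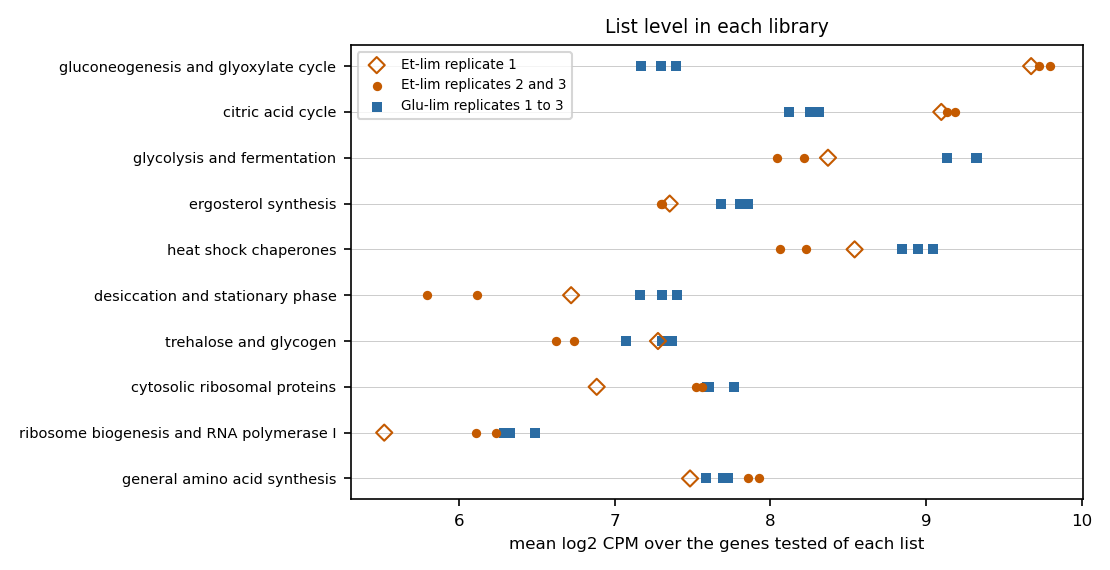
Mean log2 CPM over the genes tested of 10 lists, with 1 symbol for each library. Et-lim replicate 1 (open diamond) sits with the other Et-lim libraries for gluconeogenesis, the citric acid cycle and ergosterol, at 7.28 among the Glu-lim libraries for trehalose and glycogen, and at 6.88, below all 5 others, for cytosolic ribosomal proteins.

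Amino acid synthesis showed more rises once replicate 1 was left out. Of 53 genes 13 rose and 5 fell with it, and 22 rose and SER2 (-1.07 with it) fell without it. The falls numbered 2 without Glu-lim replicate 1 or 2 and 3 without Et-lim replicate 3. LEU4, the first enzyme of leucine synthesis, rose by 0.92 (SE 0.08) and ARO1, the pentafunctional enzyme of aromatic synthesis, by 0.61. BAT2, the cytosolic branched-chain aminotransferase, rose by 1.04. SHM2, the cytosolic serine hydroxymethyltransferase, measured 381, 830 and 860 CPM against 482, 546 and 499 CPM. Its replicate 1 was below all Glu-lim libraries while replicates 2 and 3 were above them, and its change was 0.44 with replicate 1 (adjusted p = 0.0742) and 0.73 without it (adjusted p = 0.000306). Replicate 1 was below both others in 48 of the 53 genes, and in 24 of 26 of the methionine and sulphate list. There SUL1, a sulphate permease, rose by 1.04 and the methionine permease MUP1 by 0.84. In all, 6 rose and 2 fell with replicate 1, and 9 rose without it. The rises numbered 2 without Et-lim replicate 2 or 3 or Glu-lim replicate 1, and 3 without Glu-lim replicate 2.

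Several permeases for nitrogen sources rose. Of 32 genes for ammonium assimilation and nitrogen catabolite repression 16 rose and 3 fell, with a median of 0.38, and 16 rose without replicate 1. DUR3, the urea and polyamine permease, measured 74.7, 119 and 110 CPM against 26.7, 27.3 and 23.7 CPM and rose by 1.97 (SE 0.23). MEP2, the high-affinity ammonium permease, measured 734, 1271 and 1242 CPM against 291, 327 and 303 CPM, a change of 1.82 (SE 0.18). Replicate 1 was the lowest Et-lim library in both and still above every Glu-lim library. GDH3 (1.45), a glutamate dehydrogenase of non-fermentable growth, GDH2 (1.22), which releases ammonium from glutamate, the proline permease PUT4 (1.32) and the general permease GAP1 (1.10) rose too. CAR2 and UGA1, of arginine and GABA breakdown, fell by 0.65 and 0.61.

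Uptake of other nutrients moved in single genes. Of 22 iron genes tested 10 rose and 3 fell, with the siderophore carriers SIT1 (1.11) and ENB1 (0.88) and the oxidase FET3 (0.95) among the rises, and FIT3 (-0.90) among the falls. FET3 measured 89.5, 181 and 168 CPM against 69.3, 78.7 and 78.6 CPM, with replicate 1 nearest to Glu-lim. Of 18 phosphate genes tested 7 rose and 3 fell, and 7 rose and 1 fell without Et-lim replicate 1. PHO89, a sodium-coupled phosphate carrier, rose by 1.59 and PHM8 fell by 1.5. Of 15 zinc and copper genes tested 6 rose and 2 fell, with the copper transporters CTR3 and CTR1 at 0.97 and 0.66, and 3 rose without Glu-lim replicate 1. Of 17 thiamine genes 3 rose and 3 fell, near the shares of all genes tested (16.9% higher and 15.4% lower). THI4, the thiazole synthase, fell by 2.02.

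In the fatty acid and phospholipid list 8 of 20 rose and 2 fell, and 7 rose and 1 fell without replicate 1; INO1, the inositol-phosphate synthase, rose by 2.05 and ACC1, the acetyl-CoA carboxylase, by 0.67. In the pentose phosphate list 3 of 15 rose and 8 fell. RKI1, the ribose-phosphate isomerase, rose by 1.68, and GND1, the main 6-phosphogluconate dehydrogenase, fell by 1.10. In the 6 libraries alone 4 of the 8 falls were called. Of 11 glycerol genes 2 rose and 4 fell, and 1 rose and 6 fell without replicate 1. STL1, the glycerol importer, rose by 2.37 and GPP2 and GPD2 of glycerol synthesis fell by 1.34 and 0.69. Of 12 genes of daughter cell separation 9 rose, DSE4 by 0.91 and EGT2 by 0.70, and 6 were called in the 6 libraries alone. Of 28 wall genes 5 rose and 8 fell, with CWP1 at 1.25 and YGP1 at -1.55, and 5 fell without Et-lim replicate 1. Of 10 histone genes 5 rose by 0.34 to 0.39, and HHF2 alone remained called without replicate 1. The count was also 1 without Et-lim replicate 3 or Glu-lim replicate 3 and 3 without Glu-lim replicate 1 or 2. Of 19 cell cycle genes 4 rose and WHI5, the inhibitor of the start of the cycle, fell by 0.96, and 2 rose without any one of Et-lim replicates 2 and 3 and Glu-lim replicates 1 and 2. Of 14 genes of amino acid breakdown to fusel compounds 6 rose and 4 fell, and of 15 haem genes 3 rose and 2 fell. Over all genes tested 16.9% rose and 15.4% fell. The haem counts and the rises of glycerol, pentose phosphate, wall and cell cycle genes were near these shares. Of the 7 MATa genes 4 rose, BAR1 by 0.74, and of the 5 MATalpha genes MF(ALPHA)1 fell by 1.85, at no more than 4.71 CPM in any of the 6 libraries.

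**Figure D4:**
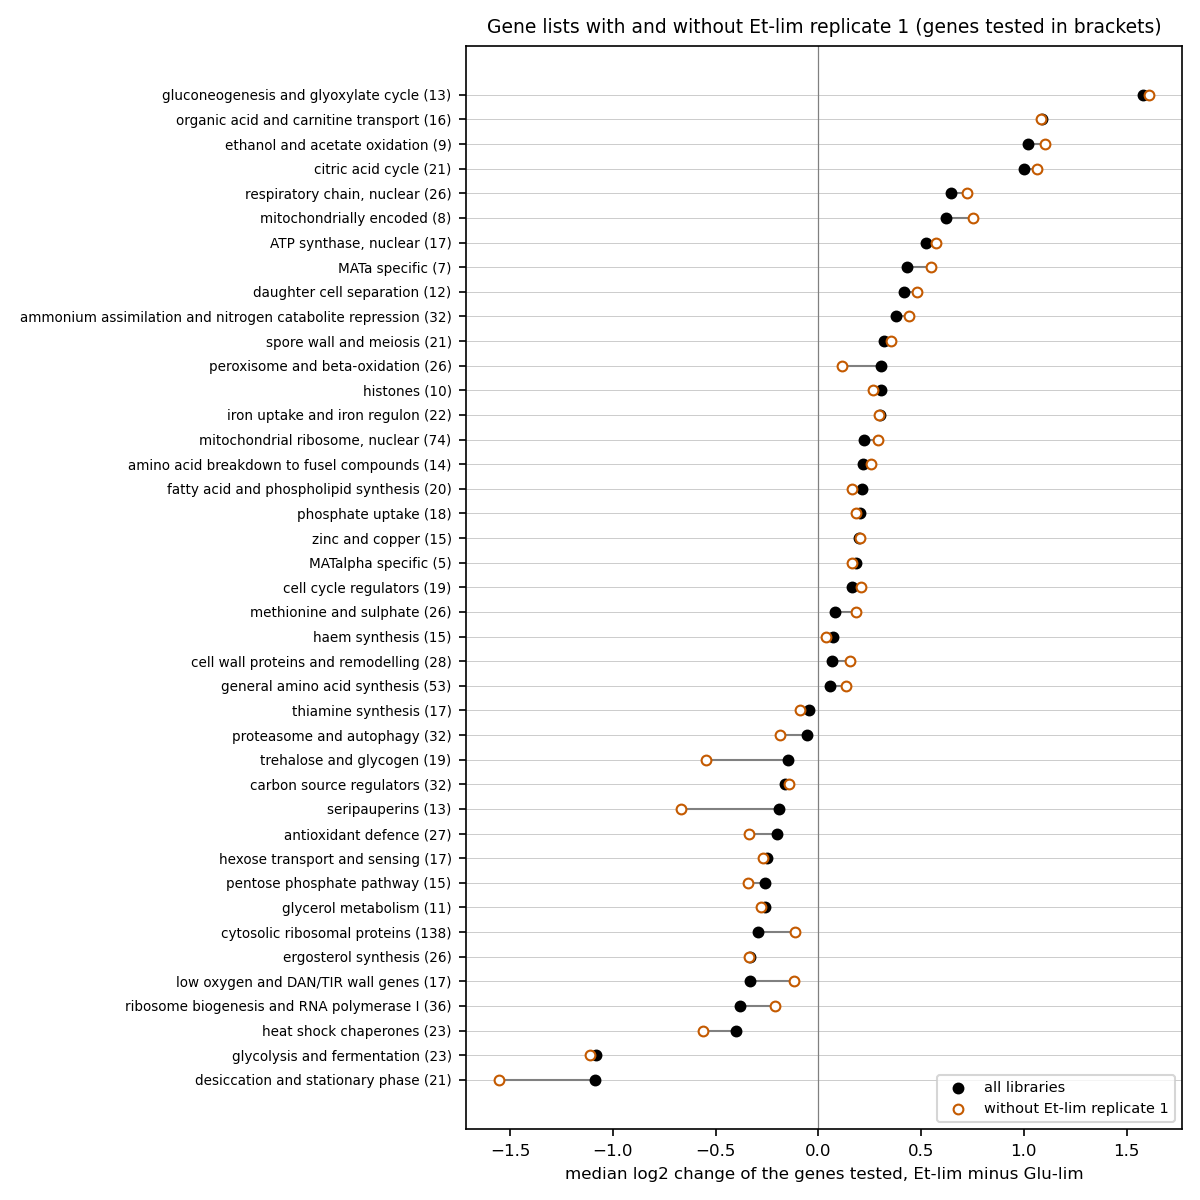
Median log2 change, Et-lim minus Glu-lim, of the genes tested in each of 41 lists, with all libraries (filled) and without Et-lim replicate 1 (open). Gluconeogenesis stays at 1.58 and 1.61, while trehalose and glycogen moves from -0.15 to -0.55 and cytosolic ribosomal proteins from -0.29 to -0.11.

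The same switch of carbon source was made in the MC vessels, with no library shared. All 14 of the largest rises were also called higher in MC tagged and in MC untagged cultures. Of the 14 largest falls, 13 were called lower in MC tagged and 14 in MC untagged cultures. These genes were chosen for their size in DASGIP, and calls over all genes in the MC sets are not given here. The counts therefore do not say how alike the responses were over all genes. PCK1 rose by 5.98 and 5.39 there, and ICL1 by 4.82 and 3.98. The test of the difference itself called 177 of 6612 genes against MC tagged cultures (2.68%), 91 with a more positive (1.38%) and 86 with a more negative change (1.30%) in the DASGIP vessel. Without Et-lim replicate 1 it called 564 (8.53%), and leaving out another library gave as few as 75. Against MC untagged cultures, which differ in vessel and strain, it called 319 genes (4.82%), with 212 more positive (3.21%) and 107 more negative (1.62%) in DASGIP, and 402 without replicate 1 (6.08%). No batch or date is given, so the vessel and any batch that ran with a set cannot be told apart.

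Of 14 rises 1 differed between the vessels in the tagged strain: ADY2 rose by 3.71 in DASGIP and 5.41 in MC tagged cultures. Lists of respiration differed by about as much with and without replicate 1: 7 and 6 of 26 respiratory chain genes, 4 and 4 of 21 citric acid cycle genes and 3 and 4 of 17 ATP synthase genes were more negative in DASGIP. Without replicate 1, 1 citric acid cycle gene was more positive. With limma's voom weights and all libraries 17, 15 and 15 were more negative, and 1 citric acid cycle gene was more positive. The medians of these lists were 0.65, 1.00 and 0.52 in DASGIP and 1.04, 1.47 and 0.94 in MC tagged cultures. In MC untagged cultures the medians were 0.50, 0.91 and 0.53, nearer to those of DASGIP than the MC tagged medians were. The 8 mitochondrially encoded genes had medians of 0.62 in DASGIP, 0.07 in MC tagged and 0.77 in MC untagged cultures. In MC tagged cultures the mitochondrial share of counts overlapped between groups, at 34.2%, 32.6% and 38.1% under Et-lim and 38.6%, 30.1% and 33.1% under Glu-lim. Of 22 iron genes 5 were more positive and 1 more negative in DASGIP with replicate 1, and 8 and 1 without it. Ribosome biogenesis depended on that library. By edgeR's test 0 of 36 genes differed with it (16 at an unadjusted p under 0.05) and 13 without it, all more positive in DASGIP; DESeq2 called 1 and limma's voom weights 29 with all libraries. Trehalose and glycogen had 2 of 19 with it and 10 without it, all more negative in DASGIP. In this list the MC tagged median was 0.46 and the MC untagged median -0.55, beside the DASGIP medians of -0.15 and -0.55 with and without replicate 1. Amino acid synthesis had 3 of 53 with replicate 1 and 15 without it, all more positive in DASGIP.

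**Figure D5:**
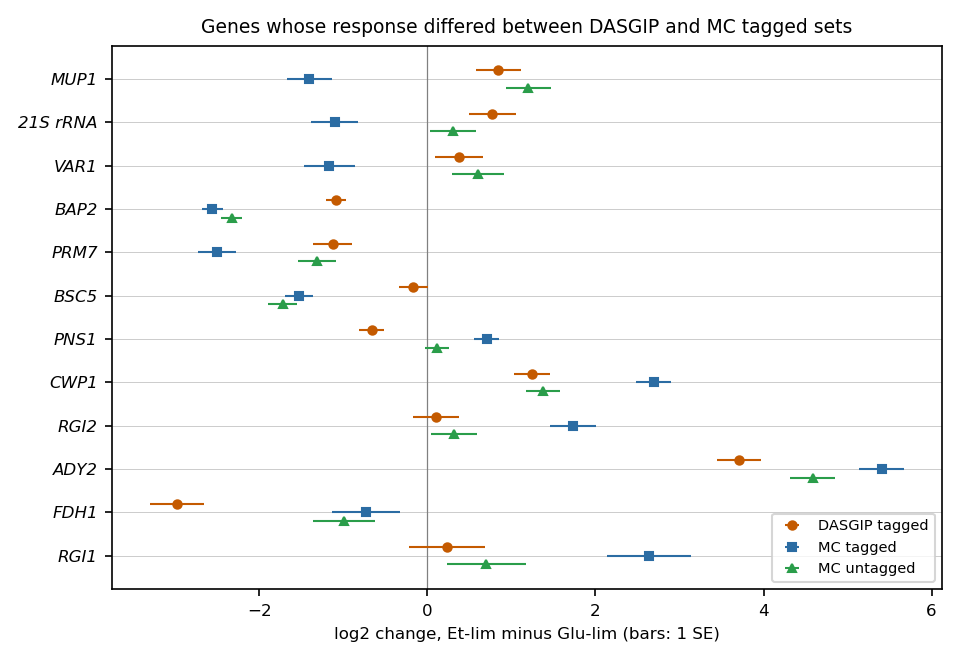
Log2 change, Et-lim minus Glu-lim, with 1 SE, in 3 sets of cultures (DASGIP, MC tagged and MC untagged) for the 12 genes named for their difference between DASGIP and MC tagged cultures. MUP1 rises in DASGIP (0.84) and falls in MC tagged cultures (-1.40), and ADY2 rises in all 3 sets.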

How the data were processed

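The authors deposited a table of raw counts per gene line, one column a library, per the file headers. Bowtie2, SAMtools, bedtools and build R64 are named in the submitters' processing notes, without versions. Not given in the sources used here: the dilution rate and whether counting used strand. RNA came from 10 OD units of cells and libraries were stranded and depleted of rRNA, per the labels' protocols. The table's CPM and mean columns were not used.

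Counts of 7122 lines in 36 libraries were scaled by TMM and filtered (filterByExpr, 6612 kept). One edgeR 4.0.16 quasi-likelihood model with 12 group means and 24 residual degrees of freedom was fitted under R 4.3.3. Benjamini-Hochberg adjusted p-values below 0.05 over all genes tested were called. Responses in the MC vessels were compared as a difference of contrasts. Alternatives used DESeq2 1.42.0, limma 3.58.1 voom weights, other scalings, filters, thinning, sample sets, a replicate block and leaving out each library. The design text states biological triplicates.

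Genes were named by rule, among those with a standard symbol and a mean of at least 10 CPM: the 14 largest called rises and falls with groups apart, 8 genes in each direction where Et-lim replicate 1 departed most, 6 in each direction for the difference from MC tagged cultures, and, in each of 41 gene lists, the 4 called members that changed most, their paralogs and, in small lists, members not called. Other list members in the text were chosen after their values were seen. Members and lists were chosen with earlier results of these data known. On simulated counts of 6613 genes, this test called 99 of 100 genes changed 2-fold and 29 of 100 changed by 0.5 (log2), with 6 false calls among 6413. The simulation gave every gene the same spread, changed only genes above a count floor and held no deviating replicate. Its figures therefore check the code and do not measure the power of this comparison. Of the lines, 6045 matched RefSeq R64, the source of positions and promoters.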

Additional observations from a re-analysis of the deposited data

Results flagged for a closer look

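The response to ethanol differed between DASGIP and MC tagged cultures, by edgeR's test of the difference, in 12 genes named for it. Values are log2 changes, Et-lim minus Glu-lim, and differences are DASGIP minus MC tagged. MUP1, a methionine permease, stood at 116, 156 and 204 CPM under Et-lim and 86.0, 98.6 and 80.7 CPM under Glu-lim in DASGIP, and at 103 ± 7.72 and 273 ± 50.6 CPM (SD, n = 3) in MC tagged cultures. Its change was 0.84 against -1.40, a difference of 2.24 (SE 0.38, adjusted p = 0.00159), and 1.20 in MC untagged cultures. BAP2, a branched-chain amino acid permease, fell in all 3 sets, by 1.09 in DASGIP, 2.56 in MC tagged and 2.33 in MC untagged cultures. Its difference was 1.47 (SE 0.17, adjusted p = 1.42e-05). BSC5 showed -0.17 against -1.53, a difference of 1.36, and PRM7 -1.12 against -2.50, a difference of 1.38. The mitochondrial 21S rRNA line (21S_RRNA) showed 0.78 against -1.10, a difference of 1.88 (adjusted p = 0.0078), and VAR1, the mitochondrially encoded ribosomal protein, 0.37 against -1.16, a difference of 1.54 (adjusted p = 0.0424).

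More negative responses in DASGIP were those of ADY2 (3.71 against 5.41, a difference of -1.70), CWP1 (1.25 against 2.69, -1.44) and PNS1 (-0.66 against 0.71, -1.37). RGI1 and RGI2, genes of growth under respiration, showed 0.24 against 2.64 and 0.11 against 1.73, differences of -2.40 (adjusted p = 0.0495) and -1.63. FDH1, a formate dehydrogenase, showed -2.97 against -0.73, a difference of -2.25, at 1.43 and 2.38 CPM in MC tagged cultures. MUP1, BAP2, BSC5, CWP1, PNS1 and 21S_RRNA kept the call in every alternative run, and ADY2 lost it in 1, PRM7 in 3, RGI2 in 4, FDH1 in 5, VAR1 in 10 and RGI1 in 13.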

How the results depend on the processing

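All 14 largest rises and all 14 largest falls kept their call and direction in each of 307 values under alternatives per direction. These genes were chosen as large called changes with the groups apart, and the alternatives reuse the same libraries. Keeping the call was therefore likely from the choice. Over 168 results for named genes, 3496 of 3682 values kept the call and 186 lost it, none with a change of direction. Leaving out 1 library in the full model gave 857 to 1067 genes higher and 783 to 1002 lower, and 115 to 132 and 191 to 256 at least 2-fold. Across the other settings, the counts ran from 752 higher and 781 lower in the 6 libraries alone to 1466 and 1436 with limma's voom weights. The 6 libraries alone gave 512 higher and 499 lower without Et-lim replicate 2 and 451 and 513 without replicate 3; this alternative was chosen after seeing the data. Upper-quartile scaling gave 48.0% of calls higher and leaving out mitochondrial and small RNA lines 56.2%, against 52.4%. The difference from MC tagged cultures (177 genes) numbered 300 by DESeq2, 327 with only the libraries compared, 1573 with voom weights and 75 to 564 with 1 library left out. Only the omission of Et-lim replicate 1 raised it by over 1.5 times; it fell that far without DASGIP Et-lim replicate 3 (75), Glu-lim replicates 1 (82) and 3 (96), MC tagged Et-lim replicates 1 (104), 2 (88) and 3 (76), and MC tagged Glu-lim replicates 1 (100) and 3 (103). Against MC untagged cultures (319) it numbered 195 with only the libraries compared, 1123 with voom weights and 136 to 402 with 1 library left out, being 165 without DASGIP Et-lim replicate 3, 175 and 181 without Glu-lim replicates 2 and 3, and 136, 176 and 204 without MC untagged Et-lim replicates 1 and 3 and Glu-lim replicate 1. The causes were not tested. Same-numbered Et-lim and Glu-lim libraries deviated together with r of 0.113, 0.245 and -0.0138, and differently numbered ones with r of -0.218 to 0.111. Whether the numbers pair the libraries was not tested. With a replicate block 1105 genes were higher and 1069 lower, 118 and 222 at least 2-fold, and 207 and 297 differed from MC tagged and MC untagged cultures. In the 6 libraries alone the block gave 768 higher and 914 lower, and more falls of cytosolic ribosomal proteins (42 against 12), antioxidant genes (11 against 7), desiccation genes (12 against 8) and pentose phosphate genes (7 against 4) and more rises of mitochondrially encoded (7 against 4) and peroxisome genes (6 against 3). Depth limits low genes, such as FDH1 and the PAU genes. Near-identical families (PAU, HXT6 and HXT7, TDH, ribosomal protein pairs) and overlapping genes are uncertain one by one.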
